A study of Mus musculus with 13 samples.

Results

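The T cell receptor beta (TRB) locus carries the gene segments from which each developing T cell assembles its beta chain, and 53 of its segments made up the set described here. They were all genes of a T cell receptor biotype in the mouse annotation whose symbol starts with Trbv, Trbd, Trbj or Trbc, and all 53 were among the 47937 genes of the count table. They comprised 22 variable (V) genes, 13 V pseudogenes, 2 diversity (D) segments, 7 joining (J) segments of the first cluster (J1), 7 J segments of the second cluster (J2) and 2 constant (C) genes. RNA sequencing had been done on 13 libraries of thymocytes sorted at the double negative stages DN3 and DN4 from C57BL/6 mice aged 6 weeks, in 4 groups: DN3 Wt with 3 libraries, DN3 KO with 3, DN4 Wt with 4 and DN4 KO with 3. The Wt mice were WT;Lck-Cre+ and the KO mice were Opa1 fl/fl;Lck-Cre+, so both genotypes carried a Cre recombinase driven by the Lck promoter, which is active in developing T cells, and only the KO mice carried floxed alleles of Opa1, which encodes a mitochondrial inner membrane protein. The mouse numbers in the sample titles placed libraries of both stages with KO45, KO49, KO51, WT05, WT46 and WT48, and WT40 had a library at DN4 alone. No label states that equal numbers are the same animal, so what is called a mouse here is inferred from that number.

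In early thymocytes the recombinase made of RAG1 and RAG2 first joins a D to a J segment and then joins a V segment to the DJ unit, and the rearranged V, D and J exon is spliced to a C gene of the same cluster. A beta chain that can pair with the pre-T alpha chain at the DN3 stage gives the signal known as beta-selection, after which cells divide and pass through DN4 to the double positive stage, where the alpha locus rearranges. Segments that have not been joined are also transcribed before recombination, and a count over a segment does not separate those transcripts from rearranged ones.

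The set spans 667224 bases of chromosome 6 in the GRCm38 build, from the start of Trbv1 at chr6:40891229-40891885 to the end of Trbv31 at chr6:41557691-41558452, the one member on the minus strand. From Trbv1 onward the other V segments come first, then Trbd1, the J1 cluster and Trbc1, then Trbd2, the J2 cluster and Trbc2. Each V gene has a short leader exon and a longer V exon, each D or J segment is 1 short coding exon, and each C gene has several exons with a UTR at its 3′ end. The J segments are printed because the clusters differed between the stages, with the letters TTNGGNNNNGG in capitals. These letters include the codons of the phenylalanine and glycine residues that mark the end of the third hypervariable loop. They were found in 5 of 7 J1 segments (71.4%) and in 6 of 7 J2 segments (85.7%), on the strand of the gene, and the J2 segment without them, Trbj2-6, is annotated as a pseudogene. The sequences are GENCODE M21 transcripts, 5′ to 3′, and all 53 members had one. Coordinates of D and J segments are those of the printed transcript, and those of V segments are of the whole gene.
Trbd1 (chr6:41533201-41533212, plus strand): GGGACAGGGGGC
Trbj1-1 (chr6:41533864-41533911, plus strand): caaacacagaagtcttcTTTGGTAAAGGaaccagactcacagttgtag
Trbj1-2 (chr6:41534001-41534048, plus strand): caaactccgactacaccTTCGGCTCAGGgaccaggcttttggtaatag
Trbj1-3 (chr6:41534323-41534372, plus strand): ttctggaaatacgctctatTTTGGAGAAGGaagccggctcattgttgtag
Trbj1-4 (chr6:41534811-41534861, plus strand): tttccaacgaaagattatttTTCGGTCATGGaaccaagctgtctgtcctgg
Trbj1-5 (chr6:41535084-41535133, plus strand): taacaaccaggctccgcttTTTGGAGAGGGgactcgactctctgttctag
Trbj1-6 (chr6:41535554-41535606, plus strand): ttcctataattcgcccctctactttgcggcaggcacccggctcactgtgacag
Trbj1-7 (chr6:41535642-41535687, plus strand): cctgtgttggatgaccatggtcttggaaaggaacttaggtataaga
Trbd2 (chr6:41542163-41542176, plus strand): GGGACTGGGGGGGC
Trbj2-1 (chr6:41542754-41542803, plus strand): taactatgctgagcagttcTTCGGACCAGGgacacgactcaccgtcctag
Trbj2-2 (chr6:41542957-41543007, plus strand): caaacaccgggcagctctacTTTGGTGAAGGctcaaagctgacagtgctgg
Trbj2-3 (chr6:41543223-41543271, plus strand): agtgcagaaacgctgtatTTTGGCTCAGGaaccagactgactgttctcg
Trbj2-4 (chr6:41543362-41543410, plus strand): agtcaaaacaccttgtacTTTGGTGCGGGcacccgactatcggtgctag
Trbj2-5 (chr6:41543453-41543501, plus strand): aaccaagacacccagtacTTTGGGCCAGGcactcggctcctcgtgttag
Trbj2-6 (chr6:41543598-41543645, plus strand): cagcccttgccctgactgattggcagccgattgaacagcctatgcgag
Trbj2-7 (chr6:41543810-41543856, plus strand): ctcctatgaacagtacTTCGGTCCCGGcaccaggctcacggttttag

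Of the V segments, the last 60 bases of the 3 genes of the Trbv13 subgroup are printed because the share of Trbv13-2 in V counts was lower at DN4 and those of Trbv13-1 and Trbv13-3 had higher means. Capitals start at the codon of the conserved cysteine that opens the third hypervariable loop, found as TGC or TGT that follows TAC or TAT by 3 bases. The same pattern was found in 20 of 22 V genes (90.9%) and 5 of 13 V pseudogenes (38.5%), on the strand of the gene.
Trbv13-1 (chr6:41116007-41116468, plus strand): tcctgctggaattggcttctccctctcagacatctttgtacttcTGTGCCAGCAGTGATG
Trbv13-2 (chr6:41121396-41121832, plus strand): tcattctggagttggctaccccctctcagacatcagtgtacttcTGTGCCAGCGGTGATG
Trbv13-3 (chr6:41130147-41130585, plus strand): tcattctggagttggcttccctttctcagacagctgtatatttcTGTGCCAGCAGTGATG

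Over their aligned bases, the transcript of Trbv13-2 was 90.6% identical to that of Trbv13-3 and 88.7% to that of Trbv13-1. Of its 291 windows of 50 bases, 1 was shared with Trbv13-3 and none with any other transcript of the annotation. Trbc1 and Trbc2 were 86.9% identical, and 283 windows of 50 bases were shared between them, 41.1% of those of Trbc1 and 44.0% of those of Trbc2, so a read inside such a window cannot be assigned to either C gene. Trbv4 and Trbv5 lie inside the long non-coding RNA 5830405F06Rik on the same strand and share 72.1% and 77.4% of their windows with it, which makes their values uncertain.

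Total counts ranged from 5926848 to 14148661 per library. Libraries are named by stage and mouse. DN3 WT05 had 41.3% of its counts in 9 genes that resemble ribosomal RNA, against 0.441 to 1.75% in the other 12 libraries, and its TRB counts were 5147 against 15305 to 47130. In DN4 WT48 the summed B cell markers (Cd79a, Cd79b, Ms4a1, Ighm and Pax5) reached 4095 CPM (counts scaled to 1000000 per library), against 813 to 2659 CPM in the other DN4 libraries and 281 to 419.7 CPM at DN3. The defining markers of DN3 cells (Il2ra, Ptcra, Notch1, Dtx1 and Hes1) summed to between 2458 and 3259 CPM at DN3 and to between 508 and 748 CPM at DN4. The gene-level Opa1 count, which sums exons inside and outside the floxed part and so checks the genotype labels only in part, was 88.5 to 93.7 CPM in DN3 KO against 91.0 to 112 CPM in DN3 Wt, and 76.9 to 87.8 CPM in DN4 KO against 85.0 to 93.6 CPM in DN4 Wt. The ranges of the genotypes overlapped at both stages.

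The segment classes moved in different directions between the stages. Of the 21 V genes tested, 20 had higher estimates at DN4 in each genotype, and 7 passed the test in Wt and 14 in KO, where 13.4% and 11.2% of all genes tested were called higher. All 7 J1 segments had lower estimates at DN4 in each genotype, and 6 passed in Wt and 1 in KO, against 9.43% and 7.34% of all genes called lower, although the KO estimate of Trbj1-5 went from -0.43 to 0.0069 without DN3 KO45. The J2 segments, the D segments and the C genes together gave no call in Wt and 2 in KO, 1 in each direction. The library sizes were scaled by the trimmed mean of M values (TMM). At DN3 the 22 V genes summed to 309, 356 and 375 CPM in WT05, WT46 and WT48 and to 387, 443 and 419.9 CPM in KO45, KO49 and KO51. At DN4 they summed to 493, 709.8, 633 and 315 CPM in WT05, WT40, WT46 and WT48 and to 864, 580.1 and 667 CPM in KO45, KO49 and KO51. Every DN4 library but WT48 lay above all 6 DN3 libraries, whose highest value was 443 CPM.

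The J1 cluster had lower sums at DN4. Its 7 segments summed to 130.2, 156 and 168 CPM in the DN3 Wt libraries (mice in the same order here and below) and to 227, 111 and 137 CPM in the DN3 KO libraries. At DN4 the sums were 55.3, 69.3, 73.4 and 85.8 CPM in Wt and 115, 63.4 and 96.6 CPM in KO. Within a genotype every DN4 Wt library lay below every DN3 Wt library, whereas DN4 KO45 at 115 CPM lay above DN3 KO49 at 111 CPM. Within each of the 6 mice with both libraries the J1 sum was lower at DN4, by 0.50 to 1.24 on the log2 scale, including both libraries of WT05 and of WT48.

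The J2 cluster summed to 65.2 ± 13.4 CPM in DN3 Wt and 59.4 ± 6.8 CPM in DN4 Wt (SD, n = 3 and 4), and to 78.0 ± 11.1 CPM in DN3 KO and 82.2 ± 8.5 CPM in DN4 KO (SD, n = 3 each). Of the 6 mice, 3 were higher and 3 lower at DN4. The sums of the C genes were 996 to 1523 CPM at DN3 and 1293 to 2277 CPM at DN4 and overlapped, with 5 of 6 mice higher at DN4 and WT48 lower. Fewer cells that transcribe a segment and less RNA per cell cannot be told apart in these bulk libraries.

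**Figure D1:**
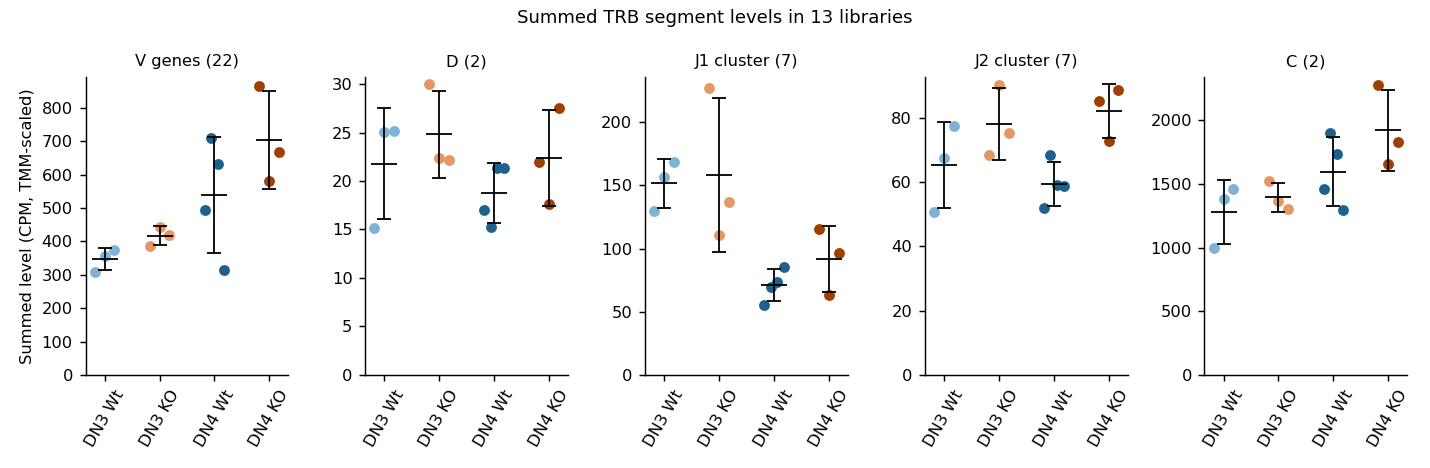
Summed level in CPM (vertical axes, from 0) of the V genes, D segments, J1 cluster, J2 cluster and C genes in each of the 13 libraries. Points are libraries, horizontal bars the group mean and error bars 1 SD. V genes sit higher at DN4 except in DN4 WT48 at 315 CPM, and J1 sits lower at DN4 except that DN4 KO45 at 115 CPM lies above DN3 KO49 at 111 CPM.

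Of the 53 members, 40 passed the filter on low counts in each comparison: 21 V genes, the pseudogene Trbv24 and all D, J and C segments. The 13 that did not pass were 12 V pseudogenes and Trbv21, with at most 15 counts in any library. Of the pseudogenes, 6 had no count in any library. The comparison of DN4 with DN3 in Wt mice (edgeR quasi-likelihood test, Benjamini-Hochberg adjusted p under 0.05 over 12691 genes) called 8 of the 40 higher and 6 lower, where 13.4% of all genes tested were called higher and 9.43% lower. The 8 higher were 7 V genes and Trbv24, and the 6 lower were Trbj1-1 to Trbj1-6. The median log2 fold change of the 40 was 0.52, against -0.03 over all genes tested.

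In KO mice the same test called 15 members higher and 2 lower, against 11.2% and 7.34% of the 12580 genes tested. The higher ones were 14 V genes and Trbc2, and the lower ones were Trbj1-1 and Trbj2-1. The median over the 40 was 0.62, against -0.02 over all genes. In all, 5 members were called higher in both genotypes, Trbj1-1 was called lower in both, and none was called in opposite directions. A member called in one genotype and not in the other is not shown to differ, since the interaction of stage and genotype called 0 of the 40 (edgeR, and 0 at an unadjusted p under 0.05, with 0 called by DESeq2). With the mouse as a block the interaction also called 0 members, and 1 of them, Trbj1-5, had an unadjusted p under 0.05 (log2 0.64, unadjusted p = 0.0209, edgeR adjusted p = 0.905). Over all genes 3.59% had such a p without the block and 5.12% with it, so both counts lie below the background.

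The counts of calls depended on which libraries and which pairing were used. With each mouse as a replicate block the edgeR test called 3 members higher and 6 lower in Wt mice, where the same fit called 13.1% of all genes higher and 6.65% lower. In KO mice it called 17 members higher and 7 lower, where it called 2523 of all 13185 genes higher (19.1%) and 2376 lower. The J1 calls were 6 of 7 lower in both genotypes under the block, and the V gene calls were 3 of 21 in Wt and 14 of 21 in KO. Without DN4 WT48 the Wt comparison called 17 higher and 6 lower (11.8% and 8.62% of all genes), and without DN3 WT05 it called 5 higher and 8 lower (14.3% and 11.4% of all genes). Without any 1 of the other 5 libraries it called 1 member higher and 5 or 6 lower, against 8.56 to 12.1% and 5.76 to 7.51% of all genes.

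**Figure D2:**
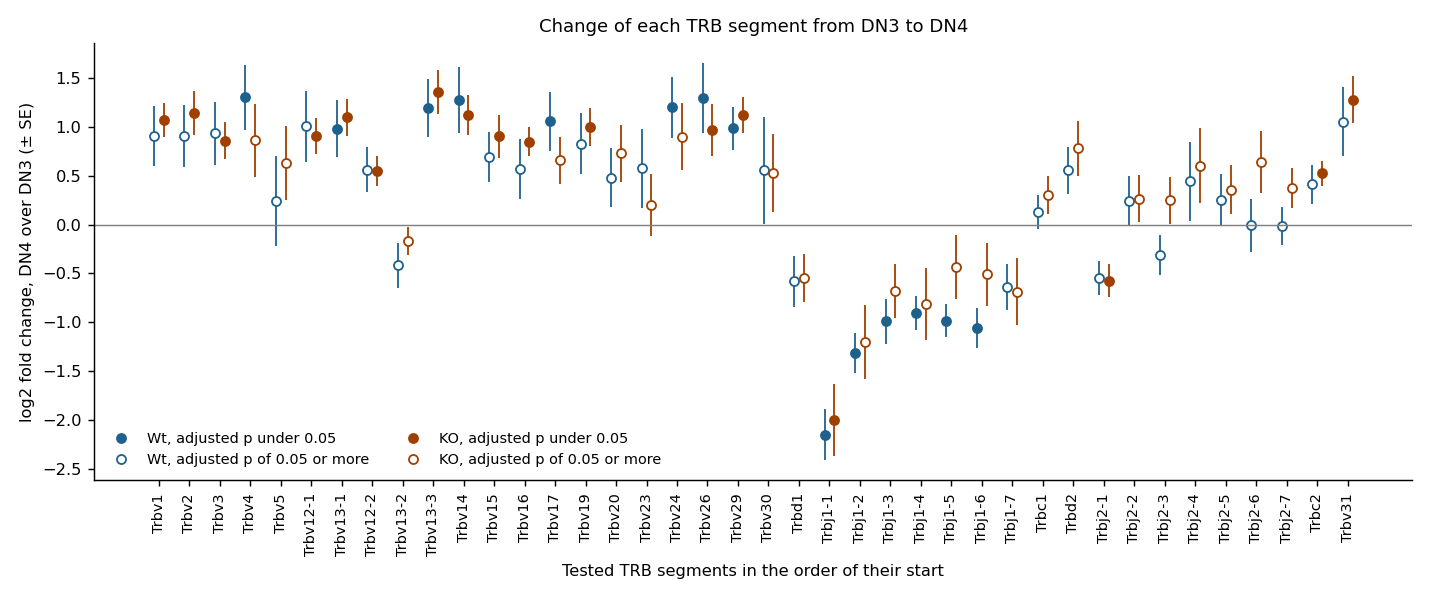
Log2 fold change of DN4 over DN3 (vertical axis, ± SE) for the 40 tested TRB segments in the order of their start on the chromosome, in Wt and in KO mice. Filled points passed an adjusted p of 0.05 in the edgeR test. V genes lie above 0 except Trbv13-2, at -0.42 in Wt and -0.17 in KO, and all 7 J1 segments lie below 0 in both genotypes, down to -2.15 for Trbj1-1.

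V segments encode the part of the beta chain that carries the first and second hypervariable loops. Per kilobase of exon, Trbv13-2 had the highest level of the 22 V genes at both stages, with 279.8 CPM per kb over the DN3 libraries (193 to 331) and 231 over the DN4 libraries (147 to 309.9). Trbv12-2 was next with 101 CPM per kb at DN3 (86.4 to 114) and 149 at DN4 (88.1 to 195). Trbv15, Trbv16 and Trbv13-1 followed at both stages, with 56.6 to 68.1 CPM per kb at DN3 and 107 to 118 at DN4, and their ranges over the libraries overlapped. The lowest were Trbv30, at 4.50 CPM per kb at DN3 and 6.73 at DN4, and Trbv21, at 0.597 and 1.72. Over the 22 V genes, the mean shares of V counts at DN3 and DN4 correlated with Pearson's r of 0.896 and Spearman's rho of 0.985, and with r of 0.975 over 21 genes without Trbv13-2. These are descriptions across genes, which share libraries and are not replicates.

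Trbv13-2 was the exception among the V genes. Its level was 65.7, 101 and 113 CPM in DN3 Wt, 105, 91.8 and 94.7 CPM in DN3 KO, 66.1, 90.6, 78.1 and 49.9 CPM in DN4 Wt, and 105, 75.5 and 84.4 CPM in DN4 KO. The stages overlapped in both genotypes, and the log2 fold change was -0.42 ± 0.23 (SE) in Wt (edgeR adjusted p = 0.24) and -0.17 ± 0.14 in KO (adjusted p = 0.459). It was the only one of the 21 tested V genes with a negative estimate in these fits, in both genotypes. Estimates of other V genes near 0 changed sign in alternatives, that of Trbv5 in Wt from 0.24 to -0.086 under the mouse block and to -0.062 without DN4 WT40, and that of Trbv23 in KO from 0.20 to -0.023 without DN4 KO51.

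The share of Trbv13-2 in all V counts, which does not depend on library scaling, separated the stages. It was 21.2, 28.1 and 29.8% in DN3 Wt, 27.1, 20.6 and 22.4% in DN3 KO, 13.3, 12.7, 12.3 and 15.7% in DN4 Wt, and 12.1, 12.9 and 12.6% in DN4 KO. All 7 DN4 libraries lay below all 6 DN3 libraries, DN4 WT48 and DN3 WT05 included. The mean share was 11.8 points lower at DN4, while the next largest change of a V gene was 1.58 points higher, for Trbv13-1. In the same subgroup, Trbv13-3 went from between 1.46 and 2.54% at DN3 to between 2.75 and 3.16% at DN4. Shares sum to 100% in a library, so a lower share of Trbv13-2 raises the sum of the others. Of the other 21, 16 had higher mean shares at DN4 and Trbv12-2, Trbv23, Trbv20, Trbv5 and Trbv30 had lower ones.

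**Figure D3:**
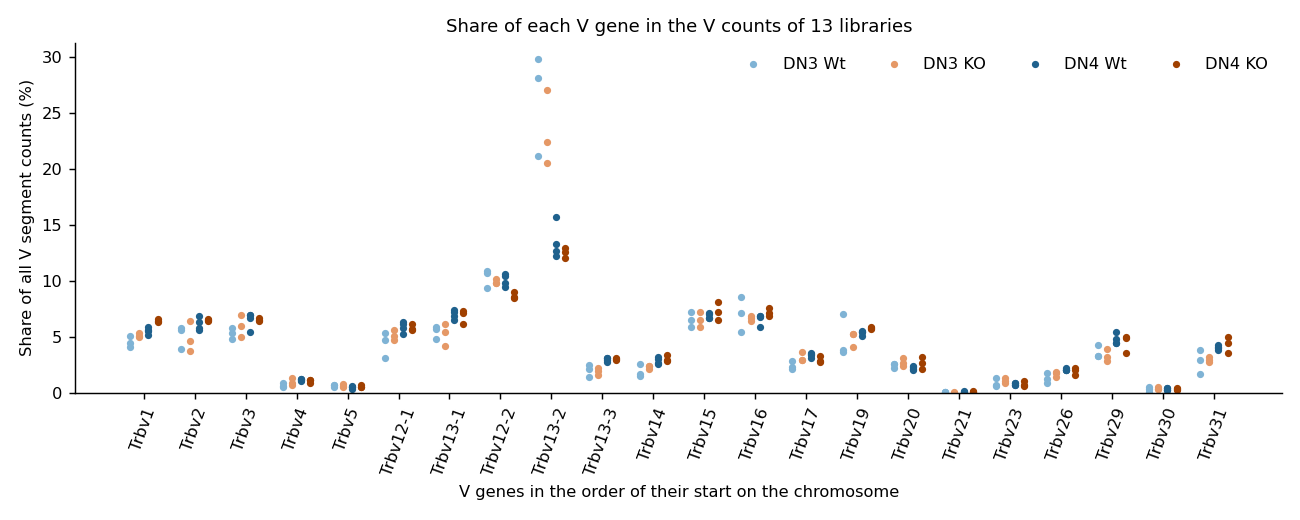
Share of each of the 22 V genes in all V counts (vertical axis, percent) for each of the 13 libraries, in the order of their start on the chromosome, coloured by group. Trbv13-2 goes from between 20.6 and 29.8% at DN3 to between 12.1 and 15.7% at DN4, while the other V genes move by at most 1.58 points between the stage means.

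The V segments with the largest called changes in Wt were Trbv4, Trbv26, Trbv14, Trbv24 and Trbv13-3. Trbv26 stood at 3.79, 3.27 and 6.60 CPM in DN3 Wt, 7.17, 7.97 and 6.17 CPM in DN3 KO, 11.3, 14.9, 13.2 and 6.58 CPM in DN4 Wt, and 19.4, 11.8 and 11.04 CPM in DN4 KO. Its log2 fold change was 1.30 ± 0.36 in Wt (edgeR adjusted p = 0.0326) and 0.97 ± 0.27 in KO (adjusted p = 0.0406). In Wt only DN4 WT48 fell within the DN3 range, and in KO the stages did not overlap. Under the mouse block the Wt call was lost (adjusted p = 0.103). It was lost in 7 of 15 alternative settings or leave-outs and the KO call in 6 of 14.

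Trbv14 stood at 8.17, 5.30 and 6.27 CPM in DN3 Wt, 9.31, 10.9 and 9.01 CPM in DN3 KO, 15.1, 22.9, 16.6 and 8.61 CPM in DN4 Wt, and 25.3, 16.8 and 22.6 CPM in DN4 KO, with no overlap of the stages in either genotype. Its log2 fold change was 1.27 ± 0.34 in Wt (edgeR adjusted p = 0.0269, and 0.053 under the block) and 1.12 ± 0.20 in KO (adjusted p = 0.00781). Trbv13-3 stood at 7.88, 7.69 and 5.50 CPM in DN3 Wt, 6.34, 9.84 and 8.43 CPM in DN3 KO, 15.5, 19.6, 20.2 and 9.52 CPM in DN4 Wt, and 25.4, 17.5 and 20.8 CPM in DN4 KO. It rose by 1.19 ± 0.30 in Wt (edgeR adjusted p = 0.0212) and 1.36 ± 0.22 in KO (adjusted p = 0.00553), and its stages did not overlap in either genotype. The Wt call of Trbv14 was lost in 6 of 15 alternatives and that of Trbv13-3 in 5 of 15.

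Trbv4 stood at 1.75, 3.09 and 2.42 CPM in DN3 Wt, 3.54, 6.11 and 3.04 CPM in DN3 KO, 6.24, 7.70, 7.25 and 3.95 CPM in DN4 Wt, and 10.3, 4.97 and 7.96 CPM in DN4 KO. The stages overlapped in KO through DN3 KO49 but not in Wt. Its log2 fold change was 1.30 ± 0.33 in Wt (edgeR adjusted p = 0.0243, and 0.075 under the block) and 0.86 ± 0.37 in KO (adjusted p = 0.149), and the non-coding RNA it lies in had an estimate of 0.80 in Wt (adjusted p = 0.206). The Wt call of Trbv4 was lost in 6 of 14 alternatives.

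Among the V genes with the highest mean levels, 7 of 8 had positive estimates in both genotypes, and Trbv13-2 was the other. Trbv13-1 stood at 18.4, 17.2 and 21.7 CPM in DN3 Wt, 16.5, 27.5 and 23.1 CPM in DN3 KO, 32.3, 51.9, 47.2 and 21.98 CPM in DN4 Wt, and 53.9, 42.7 and 48.2 CPM in DN4 KO. The stages did not overlap in either genotype, although DN4 WT48 lay close to the highest DN3 Wt library, and the log2 fold change was 0.98 ± 0.29 in Wt (edgeR adjusted p = 0.0419, and 0.101 under the block) and 1.10 ± 0.19 in KO (adjusted p = 0.0064). The Wt call was lost in 8 of 15 alternatives.

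Trbv12-2 stood at 33.3, 33.5 and 41.2 CPM in DN3 Wt, 39.4, 43.7 and 41.6 CPM in DN3 KO, 52.1, 67.9, 62.7 and 33.9 CPM in DN4 Wt, and 75.1, 49.8 and 60.8 CPM in DN4 KO. Trbv15 stood at 22.5, 21.1 and 24.7 CPM in DN3 Wt, 25.4, 32.4 and 25.0 CPM in DN3 KO, 33.5, 50.2, 42.9 and 22.7 CPM in DN4 Wt, and 71.0, 42.1 and 44.0 CPM in DN4 KO. In both genes the KO stages did not overlap and DN4 WT48 lay within the DN3 Wt range. Trbv16 stood at 26.6, 25.5 and 20.5 CPM in DN3 Wt, 26.8, 28.6 and 28.2 CPM in DN3 KO, 34.2, 48.7, 44.0 and 18.6 CPM in DN4 Wt, and 62.3, 44.4 and 46.2 CPM in DN4 KO. DN4 WT48 was here below all 6 DN3 libraries.

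Trbv3 stood at 18.1, 17.3 and 20.2 CPM in DN3 Wt, 19.5, 26.8 and 29.5 CPM in DN3 KO, 34.4, 49.8, 42.5 and 17.4 CPM in DN4 Wt, and 56.6, 39.3 and 43.3 CPM in DN4 KO. Trbv2 stood at 18.1, 20.2 and 15.0 CPM in DN3 Wt, 17.95, 16.6 and 27.1 CPM in DN3 KO, 28.9, 45.2, 43.7 and 17.8 CPM in DN4 Wt, and 57.3, 38.2 and 43.1 CPM in DN4 KO. Both were separated between the stages in KO and overlapped in Wt through DN4 WT48. Trbv1, the V gene at the far end of the locus, stood at 12.8, 18.1 and 16.7 CPM in DN3 Wt, 19.8, 22.3 and 22.7 CPM in DN3 KO, 27.6, 40.4, 37.9 and 16.4 CPM in DN4 Wt, and 57.8, 37.8 and 42.8 CPM in DN4 KO. It followed the same pattern.

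The edgeR log2 fold changes of Trbv12-2, Trbv15, Trbv16, Trbv3, Trbv2 and Trbv1 were 0.56, 0.69, 0.57, 0.93, 0.91 and 0.90 in Wt, with adjusted p-values from 0.0659 to 0.219, none past the threshold. In KO they were 0.55, 0.90, 0.85, 0.86, 1.14 and 1.07, with adjusted p-values from 0.00507 to 0.0413, all past it. The KO call was lost in 8 of 14 alternatives for Trbv12-2 (adjusted p up to 0.151), in 4 for Trbv15, in 3 for Trbv3 and in 1 for Trbv2. None of the 6 had an unadjusted interaction p under 0.05. Trbv31, which lies beyond Trbc2 and joins by inversion, rose in KO by 1.28 ± 0.24 (edgeR adjusted p = 0.0086) and had an estimate of 1.05 ± 0.35 in Wt (adjusted p = 0.0629). The position of the V genes along the chromosome gave no clear order of levels: distance from Trbd1 and the DN4 level per kb correlated with r of 0.256 and rho of 0.401 over 21 genes, without Trbv31.

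The V pseudogenes cannot encode a working V region, and together they held 0.282 to 0.741% of V counts at DN3 and 0.509 to 1.11% at DN4. Trbv24 accounted for most of these counts, at 0.876, 1.41 and 1.43 CPM in DN3 Wt, 1.40, 2.13 and 2.16 CPM in DN3 KO, 2.83, 3.02, 3.23 and 3.04 CPM in DN4 Wt, and 4.22, 2.62 and 3.88 CPM in DN4 KO. The stages did not overlap in either genotype, and the log2 fold change was 1.20 ± 0.31 in Wt (edgeR adjusted p = 0.0262, and 0.12 under the block) and 0.90 ± 0.34 in KO (adjusted p = 0.11). The Wt call was lost in 8 of 14 alternatives. Its level in DN4 WT48 was close to that of the other DN4 Wt libraries. Trbv6 had 0, 3 and 2 counts in DN3 Wt, 0, 5 and 8 in DN3 KO, 4, 3, 3 and 1 in DN4 Wt, and 5, 0 and 1 in DN4 KO, at most 0.784 CPM. Trbv22 had 0, 3 and 0 counts in DN3 Wt, 2, 0 and 1 in DN3 KO, 1, 2, 6 and 3 in DN4 Wt, and 9, 5 and 0 in DN4 KO, at most 0.643 CPM. At counts this low no difference between the groups was detectable.

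D segments form the centre of the third hypervariable loop. Trbd1 stood at 11.4, 19.4 and 21.1 CPM in DN3 Wt, 26.2, 17.0 and 17.0 CPM in DN3 KO, 10.2, 8.96, 13.5 and 15.0 CPM in DN4 Wt, and 13.9, 11.4 and 17.1 CPM in DN4 KO. Trbd2 stood at 3.79, 5.66 and 4.07 CPM in DN3 Wt, 3.79, 5.32 and 5.09 CPM in DN3 KO, 6.82, 6.33, 7.80 and 6.38 CPM in DN4 Wt, and 8.08, 6.21 and 10.4 CPM in DN4 KO. The stages overlapped for Trbd1 and did not overlap for Trbd2. Neither passed the edgeR test: Trbd1 had log2 fold changes of -0.58 in Wt and -0.55 in KO (adjusted p = 0.154 and 0.17) and Trbd2 of 0.55 and 0.78 (adjusted p = 0.138 and 0.092), although Trbd2 was called higher in KO under the block (adjusted p = 0.043).

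The share of Trbd1 in the counts of both D segments was 75.0 to 87.4% at DN3 and 58.6 to 70.1% at DN4, without overlap. Both segments are far shorter than a sequencing read, so these counts come from reads that extend beyond the segment.

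J segments form the end of the third hypervariable loop and the last strand of the variable domain. Trbj1-1, the segment with the largest change (described in full after its values were seen), stood at 17.5, 27.9 and 31.5 CPM in DN3 Wt, 41.6, 15.9 and 21.8 CPM in DN3 KO, 5.82, 5.07, 4.73 and 8.20 CPM in DN4 Wt, and 7.65, 5.66 and 7.16 CPM in DN4 KO. All 7 DN4 libraries lay below all 6 DN3 libraries. It fell by 2.15 ± 0.26 on the log2 scale in Wt (edgeR adjusted p = 0.00102) and by 2.00 ± 0.37 in KO (adjusted p = 0.00813), and was lower at DN4 in 6 of 6 mice. Both calls held in every alternative run. Among J1 counts its share was 13.5 to 18.7% at DN3 and 6.44 to 10.5% at DN4.

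Trbj1-2, the next segment of the cluster, fell by 1.31 ± 0.20 in Wt (edgeR adjusted p = 0.00268) and had an estimate of -1.20 ± 0.38 in KO (adjusted p = 0.0616, and 0.00181 under the block). Trbj1-3 stood at 24.5, 30.8 and 33.4 CPM in DN3 Wt, 43.4, 22.9 and 25.9 CPM in DN3 KO, 9.65, 16.1, 16.5 and 18.8 CPM in DN4 Wt, and 23.02, 15.5 and 20.5 CPM in DN4 KO. Trbj1-5 stood at 25.1, 31.1 and 32.7 CPM in DN3 Wt, 44.8, 20.2 and 24.8 CPM in DN3 KO, 12.3, 16.3, 15.1 and 17.6 CPM in DN4 Wt, and 27.4, 16.3 and 24.9 CPM in DN4 KO. For both, the Wt stages were separated and the KO stages overlapped.

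Trbj1-3 fell by 0.99 ± 0.23 in Wt (edgeR adjusted p = 0.0174) and had an estimate of -0.68 ± 0.28 in KO (adjusted p = 0.129, and 0.007 under the block). Trbj1-5 fell by 0.98 ± 0.17 in Wt (adjusted p = 0.00454) and had an estimate of -0.43 ± 0.33 in KO (adjusted p = 0.398), which was 0.0069 without DN3 KO45 and -0.65 without DN3 KO49, and was the only J1 segment not called under the block in KO. The Wt call was lost in 3 of 15 alternatives for Trbj1-3 and in 1 of 15 for Trbj1-5. Trbj1-4 and Trbj1-6 fell by 0.90 and 1.06 in Wt (edgeR adjusted p = 0.0072 and 0.00754), and Trbj1-7 had an estimate of -0.64 in Wt (adjusted p = 0.09). Trbj1-6 and Trbj1-7 are the segments of the cluster without the letters marked above. The interaction of stage and genotype called no J1 segment with or without the block. Without it the lowest unadjusted p among the 7 was 0.161 (edgeR). Under the block Trbj1-5 had an unadjusted p of 0.0209 (edgeR), where 5.12% of all genes had one under 0.05.

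The J2 cluster held 1 segment that was called lower, in KO, and 6 that gave no call. Trbj2-1, which opens the cluster, stood at 19.9, 28.5 and 31.9 CPM in DN3 Wt, 28.7, 38.9 and 33.1 CPM in DN3 KO, 18.05, 20.6, 18.9 and 17.9 CPM in DN4 Wt, and 20.7, 21.3 and 26.7 CPM in DN4 KO. It fell by 0.57 ± 0.17 in KO (edgeR adjusted p = 0.0475), had an estimate of -0.54 ± 0.17 in Wt (adjusted p = 0.0557) and was lower at DN4 in 6 of 6 mice. The KO call was lost in 5 of 14 alternatives (adjusted p up to 0.149). Trbj2-7 stood at 11.97, 13.9 and 15.7 CPM in DN3 Wt, 14.1, 20.7 and 15.2 CPM in DN3 KO, 11.9, 18.1, 13.3 and 12.96 CPM in DN4 Wt, and 25.8, 18.4 and 21.3 CPM in DN4 KO. Its stages overlapped in both genotypes, with log2 fold changes of -0.01 ± 0.20 in Wt (adjusted p = 0.971) and 0.37 ± 0.20 in KO (adjusted p = 0.248).

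As a share of all J counts, which is free of library scaling, J1 held 55.1 to 76.8% at DN3 and 46.6 to 59.4% at DN4. The Wt values (68.5 to 71.9% and 50.4 to 59.4%) did not overlap between the stages, whereas the KO values (55.1 to 76.8% and 46.6 to 57.5%) did, through DN3 KO49. Against the constant gene of its own cluster, J1 had 21.005 to 31.3 counts per 100 Trbc1 counts at DN3 and 9.28 to 16.0 at DN4. J2 had 8.59 to 10.8 counts per 100 Trbc2 counts at DN3 and 5.53 to 7.82 at DN4. Neither ratio overlapped between the stages. A read that runs from a J segment into a C exon overlaps both genes, and whether such reads were counted is not given in the sources used here.

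The C genes encode the constant domain and membrane anchor of the beta chain. Trbc1 stood at 452, 609 and 639 CPM in DN3 Wt, 726, 526 and 529 CPM in DN3 KO, 574, 747, 669 and 537 CPM in DN4 Wt, and 914, 634 and 694 CPM in DN4 KO. Trbc2 stood at 544, 775 and 823 CPM in DN3 Wt, 798, 838 and 774 CPM in DN3 KO, 886, 1156, 1065 and 756 CPM in DN4 Wt, and 1363, 1024 and 1135 CPM in DN4 KO. Trbc1 overlapped between the stages, and Trbc2 was separated in KO and overlapped in Wt through DN4 WT48.

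Trbc2 rose in KO by 0.52 ± 0.13 (edgeR adjusted p = 0.0278) and had an estimate of 0.41 ± 0.20 in Wt (adjusted p = 0.19). The KO call was lost in 6 of 14 alternatives, among them leaving out any 1 of DN3 KO45, DN3 KO49, DN3 KO51, DN4 KO45 or DN4 KO51 (adjusted p up to 0.133). The estimates of Trbc1 were 0.13 ± 0.17 in Wt (adjusted p = 0.641) and 0.30 ± 0.19 in KO (adjusted p = 0.313, and 0.017 under the block). The share of Trbc2 in C counts was 52.4 to 61.4% at DN3 and 58.5 to 62.1% at DN4.

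Across the DN4 libraries the V level and the level of later-stage markers ran in nearly the same order. Markers of the immature single positive and double positive stages that follow DN4 (Cd8a, Cd8b1, Cd4 and Cd1d1) summed to 88.7 to 144 CPM at DN3 and to 498, 1579, 999 and 236 CPM in DN4 Wt and 2519, 654 and 929 CPM in DN4 KO, and 3 of the 4 were called higher at DN4 in each genotype. In both the marker sum and the V sum, KO45 was highest and WT40 next, and WT48 was lowest, preceded by WT05 and then by KO49. Only KO51 and WT46, whose marker sums were 929 and 999 CPM, changed places. The C sums of these libraries ran in the order of the V sums, from 1293 CPM in WT48 to 2277 CPM in KO45. So did the sums of the 14 genes of V(D)J recombination described below, from 2408 to 5070 CPM. The order is thus not particular to V genes. B cell markers (5 of 5 higher at DN4 in each genotype, none at 0 at DN4) summed to 2365, 980.2, 1069 and 4095 CPM in DN4 Wt and 1796, 2659 and 813 CPM in DN4 KO, and were highest in WT48, where the V sum was lowest. Markers of mature alpha beta and natural killer T cells were called higher for 6 of 8 genes in Wt and 7 of 8 in KO, and summed to 389 to 869.9 CPM at DN3 and 589.6 to 1563 CPM at DN4. Gamma delta T cell markers summed to 524 to 857 CPM at DN3 and 562 to 1325 CPM at DN4, and markers of natural killer and innate lymphoid cells to 239 to 325 and 223 to 438 CPM. Myeloid markers summed to at most 31.3 CPM and erythroid markers to at most 5.17 CPM in any library. The part of these cells in the TRB values was not tested.

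**Figure D4:**
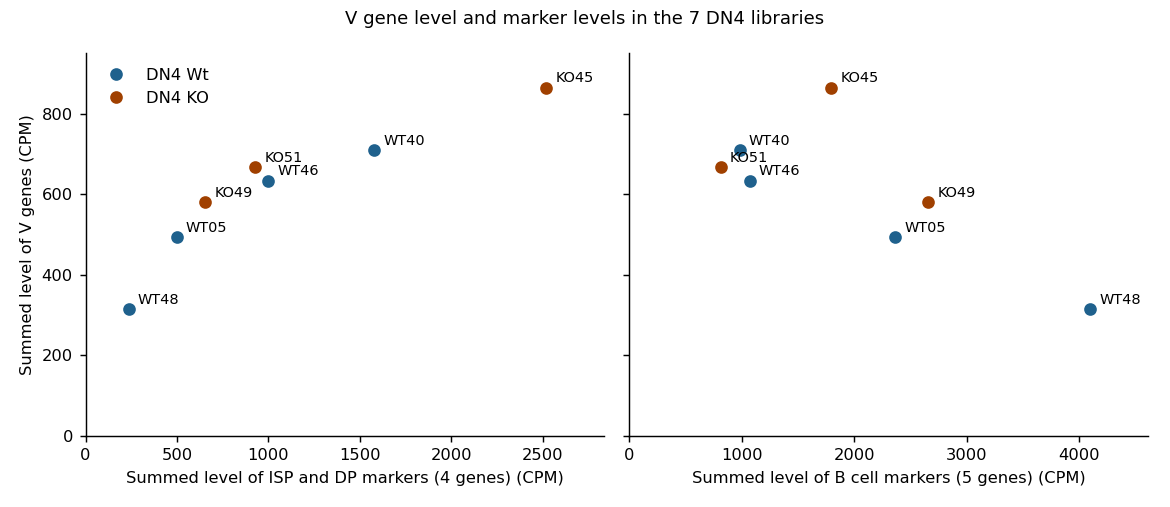
Summed V gene level in CPM (vertical axis, from 0) against the summed level in CPM of 4 markers of immature single positive and double positive cells (left) and of 5 B cell markers (right) in the 7 DN4 libraries, labelled by mouse. DN4 WT48 has the lowest V level, 315 CPM, the lowest sum of the former and the highest sum of the latter, 4095 CPM.

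No TRB member was called between KO and Wt at either stage, although the estimates leaned one way. At DN4, edgeR called 0 of the 40 members, where 0.0535% of 13084 genes tested were called, and 6 members had an unadjusted p under 0.05, as did 5.46% of all genes (5 members and 5.85% of genes by DESeq2, which also called 0 members). All 40 estimates were above 0, with a median log2 fold change of 0.38 and a range of 0.16 to 0.79, against a median of 0.00 over all genes tested. At DN3, 0 of 40 were called (0.0% of 12105 genes), 1 had an unadjusted p under 0.05 in edgeR (1.39% of all genes) and 1 in DESeq2 (1.87% of all genes), which called 0 members, and 37 of 40 estimates were above 0 with a median of 0.22, against -0.01 over all genes tested. Members of 1 locus share cells and library and are not independent, so the count of positive estimates is a description. Marker lists leaned too, with none of their genes called: at DN4 the median log2 fold change of KO over Wt was 0.60 for immature single positive and double positive cells, 0.38 for DN3 cells, -0.34 for B cells, -0.61 for gamma delta T cells, -0.50 for mature alpha beta and natural killer T cells and -0.50 for natural killer and innate lymphoid cells. At DN3 the medians of these lists, in the same order, were 0.50, 0.27, -0.17, 0.12, 0.38 and 0.04. Only 3 B cell, 4 mature alpha beta and natural killer T cell and 2 natural killer and innate lymphoid markers were tested at DN3. Their part in the TRB values was not tested.

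Without DN4 WT48 the 40 estimates at DN4 were still above 0, with a median of 0.28, and that of the V genes went from 0.40 to 0.19. The estimates of Trbv17, Trbj1-4 and Trbj1-7 were below 0 without DN4 KO45 and that of Trbj1-2 without DN4 KO51, to -0.054 at the lowest. Without DN3 WT05, whose V and C sums were the lowest of the 6 DN3 libraries, 29 of 40 estimates at DN3 were above 0, with a median of 0.18. Of the 6 members with an unadjusted p under 0.05 at DN4, 5 were J2 segments and 1 was Trbj1-5.

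The J2 sums were 85.1, 72.6 and 88.7 CPM in DN4 KO and 51.8, 68.3, 58.9 and 58.7 CPM in DN4 Wt. These did not overlap, as was so in CPM for 7.06% of all genes tested, whereas at DN3 the sums of 68.5, 90.2 and 75.2 CPM in KO overlapped those of 50.8, 67.4 and 77.3 CPM in Wt. Trbj2-6, the J pseudogene (given in full after its values were seen), stood at 7.72, 8.63 and 10.9 CPM in DN4 KO and 4.41, 5.94, 5.75 and 5.47 CPM in DN4 Wt, against 3.54, 7.97 and 5.98 CPM in DN3 KO and 3.50, 5.66 and 6.49 CPM in DN3 Wt. Its genotypes did not overlap at DN4 and overlapped at DN3. It had the lowest unadjusted p of the members at DN4 (log2 0.78 ± 0.20, unadjusted p = 0.00454, edgeR adjusted p = 0.752). Trbj2-7 was higher by 0.67 ± 0.20 in KO at DN4 (unadjusted p = 0.00841, edgeR adjusted p = 0.832). Neither holds after adjustment.

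**Figure D5:**
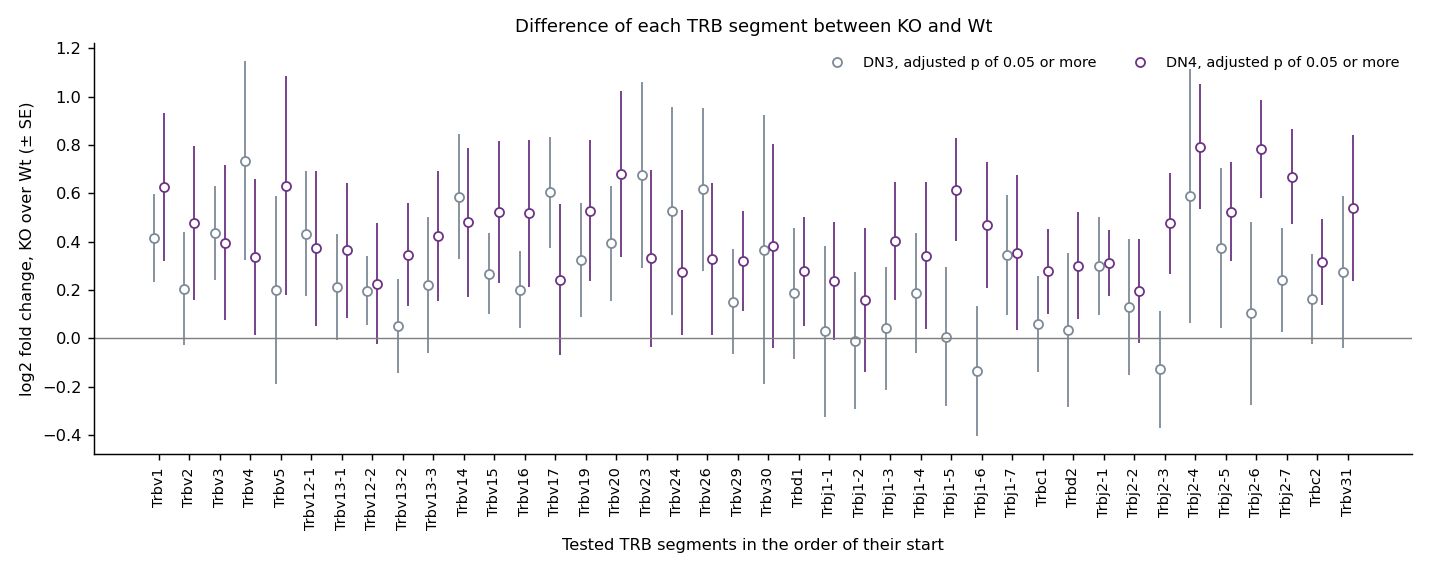
Log2 fold change of KO over Wt (vertical axis, ± SE) for the 40 tested TRB segments in the order of their start on the chromosome, at DN3 and at DN4. All points are open, since no segment passed an adjusted p of 0.05 in the edgeR test, and all 40 DN4 estimates lie above 0, between 0.16 and 0.79.

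V gene usage by genotype is given as a description, with no test. The mean shares of the 22 V genes in Wt and KO correlated with r of 0.997 and rho of 0.984 at DN3 and with r of 0.990 and rho of 0.989 at DN4, as descriptions across genes. The share of Trbv13-2 was 26.4 ± 4.58% in DN3 Wt and 23.4 ± 3.35% in DN3 KO (SD, n = 3 each), and 13.5 ± 1.53% in DN4 Wt and 12.5 ± 0.42% in DN4 KO (SD, n = 4 and 3). At DN3 it had the largest difference of group means, 3.03 points, and its genotypes overlapped at both stages. At DN4 the largest was that of Trbv12-2, which held 8.63, 8.54 and 9.05% of V counts in KO and 10.5, 9.52, 9.84 and 10.7% in Wt. Of the 22 V genes, 3 did not overlap between the genotypes at DN4 and 1, Trbv17, at DN3, singled out after their values were seen. For shares there is no count over all genes to set beside these. In CPM, 5 of the 40 members tested at DN4 and 6 of 40 at DN3 did not overlap between the genotypes. Of all genes tested, 7.06% and 6.43% did not. Members share cells and libraries, so little is read from these counts. At DN4 the other V genes whose shares did not overlap were Trbv1, with 6.65, 6.48 and 6.37% in KO and 5.56, 5.67, 5.95 and 5.16% in Wt, and Trbv19, with 5.72 to 5.94% in KO and 5.13 to 5.54% in Wt. The interaction of stage and genotype had a median of 0.15 over the 40 members, a range of -0.44 to 0.64, and called 0.0% of the 13361 genes tested.

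Of the 14 genes of V(D)J recombination listed, 2 were called higher and 2 lower at DN4 in Wt, and 1 higher and 2 lower in KO, with median log2 fold changes of -0.24 and 0.02. Over all genes tested 13.4% were called higher and 9.43% lower in Wt and 11.2% and 7.34% in KO, so the counts of this list stand near the background. Dntt, which encodes the transferase that adds bases at the junctions, fell by 1.15 in Wt and by 0.71 in KO (edgeR adjusted p = 0.0134 and 0.0106). Polm, a polymerase of the end joining step, rose by 2.07 in Wt and by 1.96 in KO (adjusted p = 0.00132 and 0.00166). In Wt, Poll was also called higher and Xrcc6 lower, and in KO Xrcc5 was called lower. Rag1 and Rag2, which encode the recombinase, gave no call, with estimates of -0.70 and -0.92 in Wt (adjusted p = 0.21 and 0.0946) and of 0.50 and -0.05 in KO (adjusted p = 0.376 and 0.943).

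Of 10 partners of the beta chain and kinases or adaptors beside it, 3 were called higher and 2 lower at DN4 in Wt and 2 and 2 in KO, against the same shares of all genes, and nothing particular to so short a list is read from them. Ptcra, the pre-T alpha chain that pairs with the new beta chain, fell by 2.13 in Wt and by 1.65 in KO (edgeR adjusted p = 0.00178 and 0.00133), and Cd3g, a signalling chain of the receptor complex, fell in both. The kinases Fyn and Zap70 rose in both genotypes, by 1.41 and 1.22 in Wt. None of these 24 genes was called between the genotypes at either stage. Of 35 other genes inside the locus or within 100000 bases of it, 23 had no count in any library and 2 were tested. Ephb6, beyond Trbv31, rose by 1.05 in Wt and by 1.63 in KO (edgeR adjusted p = 0.00934 and 0.0061), and 5830405F06Rik had estimates of 0.80 and 0.62 with no call (adjusted p = 0.206 and 0.231). Prss2, a trypsin gene beside the D segments, was not tested and had group means of at most 0.614 CPM.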

How the data were processed

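Poly(A) libraries had been made with a stranded kit. Per the paper's methods, the authors used Cutadapt for trimming, STAR for mapping and featureCounts for counting. The submitters' processing notes name mm10. Versions, annotation, the strand setting and the handling of reads over several genes are not given in the sources used here. The values used are raw counts per gene as deposited by the authors. Rearranged junctions are not in the genome sequence, so reads across them may have been lost or trimmed at mapping, and segments of 12 to 54 bases are shorter than most reads.

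Gene IDs were matched without version to GENCODE M21 on GRCm38 (47224 of 47937). Coordinates are from that annotation. No genome sequence was used, so recombination signals were not analysed here. Each comparison was fitted in R 4.3.3 with edgeR 4.0.16 and its quasi-likelihood test, on the groups compared only (all 13 libraries for the interaction), with filterByExpr at a minimum count of 10, TMM scaling and Benjamini-Hochberg adjustment at 0.05 over all genes tested. Standard errors are the log2 fold change over the root of F. DESeq2 1.42.0, other scalings and filters, each library left out and the mouse as a replicate block were alternatives. CPM use TMM factors over 13 libraries. Sums and shares got no test. Depth was 5926848 to 14148661 counts per library (median 10023044), and Trbd2, Trbv30 and the pseudogenes rest on few of them. P-values of the main fits measure the spread between libraries of a group, each under a different mouse number. The main stage and interaction fits treat both libraries of a mouse as independent. Under the block, p-values measure how the stage change varies between mice.

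Members, gene lists and tests were chosen with earlier results of these data known. From the marker lists, 2 genes are not reported here and were left out of the sums. Values in every library are given for C and D segments, the top 2 J per cluster, the top 8 V, the 5 V with the largest called change in Wt in each direction and 3 pseudogenes. Libraries of the same mouse deviated together (r = 0.138 to 0.393 in 6 pairs over 13361 genes), so the block was taken as a pairing by mouse, read from the number in the sample titles. No library was a duplicate of another of its group, and pairs across groups were not checked. The labels give no sequencing batch. The scripts were tested on simulated data.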

Additional observations from a re-analysis of the deposited data

Results flagged for a closer look

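The counts of the J2 cluster per 100 counts of Trbc2 were 5.85, 5.91, 5.53 and 7.77 in the DN4 Wt libraries WT05, WT40, WT46 and WT48, and the value of 7.77 in WT48 stood apart from the other 3 of its group by Dixon's ratio. It was 1 of 57 quantities examined in the group of 4 libraries, and chance gives such a flag in about 1 of 20. The DN4 KO libraries, at 6.25, 7.09 and 7.82, reached the same level, and DN3 libraries lay between 8.59 and 10.8. The same library had the highest marker sums of the 13 for B cells (4095 CPM), gamma delta T cells (1325 CPM), mature alpha beta and natural killer T cells (1563 CPM) and natural killer and innate lymphoid cells (438 CPM), and the lowest V sum of the DN4 libraries, 315 CPM. The part of its makeup in this value was not tested.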

How the results depend on the processing

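In Wt mice the stage comparison called 14 members (8 higher and 6 lower). It called 6 with library totals in place of TMM (4 higher and 2 lower, against 10.9% and 3.12% of all genes), 22 with the DESeq2 Wald test (15 and 7, against 16.2% and 11.4%), 9 with the replicate block on the 3 mice with both libraries (3 and 6), 23 at an adjusted p under 0.1 (15 and 8, against 2145 and 1781 of all 12691 genes) and 9 with a log2 fold change of at least 1 (6 and 3, against 9.24% and 4.34%). Leaving out 1 library gave 6 to 23 calls, with 6 or 7 without DN3 WT46, DN3 WT48, DN4 WT05, DN4 WT40 or DN4 WT46, 13 without DN3 WT05 and 23 without DN4 WT48. The same fits called 8.56 to 14.3% of all genes higher and 5.76 to 11.4% lower. In KO mice, 17 became 8 with a log2 fold change of at least 1 (7 higher and 1 lower, against 7.16% and 3.85% of all genes) and 24 with the block, and 10 to 15 with 1 library left out: 10 without DN3 KO49 or DN3 KO51 and 11 without DN4 KO45, in fits that called 6.36 to 13.2% of all genes higher and 4.27 to 7.92% lower. The DN4 over DN3 ratio of the J1 sum in Wt went from 0.468 to 0.511 with library totals. No member was called between genotypes or in the interaction under any alternative run, and no call of a named segment reversed. Over the alternatives, uncalled estimates changed sign in 4 of the 40 members in the Wt stage comparison, 2 in KO, 16 between genotypes at DN3, 4 at DN4 and 23 in the interaction. Among the named segments in the stage comparisons, Trbj2-7 in Wt, at -0.01, was 0.14 with library totals, 0.0103 without the filter, 0.0101 in the fit of all 13 libraries and -0.16 to 0.0861 with 1 library left out, Trbc1 in Wt was -0.016 to 0.22 with 1 library left out, and Trbj1-5 in KO was -0.65 to 0.0069 with 1 left out, the latter without DN3 KO45. The block was fitted to the stage comparisons and the interaction, since a mouse has 1 genotype. Of 767 refits of named segments, 91 lost and 23 gained a call. Library totals moved the median log2 fold change of all genes tested from -0.03 to 0.16 in the Wt stage comparison, from -0.01 to 0.23 between genotypes at DN3 and from -0.02 to -0.20 in the interaction. The cause of these shifts was not tested, beyond fewer libraries or a stricter rule. Leaving out the ribosomal RNA-like genes, chosen after seeing the data, called 8 higher and 6 lower in Wt. Low counts limit Trbv21, Trbv30, Trbd2 and the pseudogenes.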
